A study of Mus musculus with 6 samples.

Results

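The V-ATPase is the proton pump that acidifies endosomes and lysosomes, and the genes described here encode its membrane-embedded V0 sector and the accessory proteins that accompany it. They were the rows of the deposited gene table named Atp6v0a1, Atp6v0a2, Atp6v0a4, Tcirg1, Atp6v0b, Atp6v0c, Atp6v0d1, Atp6v0e, Atp6ap1 and Atp6ap2. All 10 were found among 24421 genes. The cells were an immortalized line of wild-type mouse proximal tubular epithelial cells (PTECs), kept in culture for 6 hours with bovine serum albumin (BSA, 3 libraries) or with palmitic acid (PA) bound to BSA (3 libraries). PA, a saturated fatty acid, was the added agent, and BSA alone was the control. The study asked which regulatory pathways PTECs use during lipid overload. No source says whether the 3 libraries of each condition are separate cultures, so p-values reflect only how these samples vary, and that may be technical.

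In the V-ATPase, the V1 sector hydrolyzes ATP on the cytosolic side and drives the rotation of a ring of proteolipid subunits in V0, which carries protons across the membrane past the a subunit. The a subunit exists as alternative isoforms that direct the pump to different membranes. The acid interior lets lysosomal hydrolases work, and the pump is also part of the machinery by which lysosomes report nutrient supply to MTORC1. Many V-ATPase genes are known targets of transcription factor EB (TFEB), which binds the CLEAR motif, a sequence built around the letters CACGTG. In the kidney, proximal tubule cells use the pump in endosomes that take up filtered protein, and intercalated cells of the collecting duct place it on the cell surface to secrete acid.

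Promoter windows are shown first because TFEB-type sites are defined by sequence. In the RefSeq table for GRCm38.p6, which holds the bases from 250 before to 50 after each annotated start, 9 of the 10 genes had an entry, and Atp6v0a2 was the remaining member. Windows were searched on both strands for CACGTG, which reads the same on each strand. It was found in 3 of these 9 genes, beside 8.09% of the 27025 genes in the table, and in 1 of 9 V1 genes with an entry (Atp6v1a). The only window of Atp6v0a1, chr11:101010148-101010447, does not hold the start of that gene in GENCODE vM21, at base 101009452. That start was not searched, so the lack of a site in Atp6v0a1 covers only the window. In Atp6v0e, too, the GENCODE start, at base 26663231 of chromosome 17, lies outside the window. Atp6v1b2, Atp6v1c1, Atp6v1g1 and Atp6v1h had no entry. The 9 V1 genes searched are therefore not the 9 V1 genes tested for expression below, and the counts of V0 and V1 are not a like comparison. In all 3 members the longer word TCACGTG, which contains CACGTG and is searched together with its reverse complement, was also present, beside 4.29% of genes. The windows that held it are shown 5′ to 3′ on the strand of the gene, with CACGTG in capitals, at chr4:117887280-117887579 (minus strand), chr8:105566015-105566314 (minus strand) and chr17:26676146-26676445 (plus strand).
Atp6v0b: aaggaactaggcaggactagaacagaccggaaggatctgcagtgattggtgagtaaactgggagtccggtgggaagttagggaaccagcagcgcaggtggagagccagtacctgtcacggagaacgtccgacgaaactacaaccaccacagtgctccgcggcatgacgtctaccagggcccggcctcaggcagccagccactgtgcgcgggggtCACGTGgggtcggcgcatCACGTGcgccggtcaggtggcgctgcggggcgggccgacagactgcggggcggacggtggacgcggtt
Atp6v0d1: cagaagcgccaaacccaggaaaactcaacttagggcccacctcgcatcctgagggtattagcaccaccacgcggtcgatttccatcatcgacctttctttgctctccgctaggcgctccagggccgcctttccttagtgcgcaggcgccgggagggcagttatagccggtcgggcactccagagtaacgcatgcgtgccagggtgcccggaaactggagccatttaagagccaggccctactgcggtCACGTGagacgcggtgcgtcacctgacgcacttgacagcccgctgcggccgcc
Atp6v0e: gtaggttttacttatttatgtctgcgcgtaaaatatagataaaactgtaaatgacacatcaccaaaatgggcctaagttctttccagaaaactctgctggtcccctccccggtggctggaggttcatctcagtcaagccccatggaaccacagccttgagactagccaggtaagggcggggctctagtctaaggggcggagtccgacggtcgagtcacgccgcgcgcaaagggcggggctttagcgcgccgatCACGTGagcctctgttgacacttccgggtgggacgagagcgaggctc
Atp6v0b held 2 sites, which begin 36 and 18 bases before the start. In Atp6v0d1 the site begins 3 bases before the start, and in Atp6v0e 3 bases after it. The palindrome TCACGTGA was present in Atp6v0d1 and Atp6v0e, beside 1.13% of genes in the table. The longest word searched was this palindrome with a G before it and a C after it. That word was found in 0 of the 9 V0 and accessory genes with an entry, beside 0.37% of genes in the table. A match is a description of the letters, and binding was not measured in these libraries.

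Expression was given by the authors as RPKM, reads scaled to gene length and library size. A comparison of levels between genes therefore depends on the length the authors set for each gene. Library sizes recovered from the steps of these values lay between 17679817 and 21568228 reads. The 11671 genes that averaged 0.5 RPKM or more were compared on the log2(RPKM + 0.1) scale with limma, which gives a log2 fold change of PA over BSA and its standard error (SE). That scale understates the change of low genes. Calls were made where the p adjusted by the Benjamini-Hochberg method fell under 0.05. Of the proximal tubule markers, 2 of 12 had a mean RPKM over 1, Lrp2, the endocytic receptor megalin, and the water channel gene Aqp1, and the transporter genes Slc34a1, Slc5a2 and Slc22a6 were close to 0. The summed RPKM of 9 fibroblast and endothelial markers, of which only Col1a2 averaged over 1, was 2.32 to 2.70 with BSA and 1.55 to 2.17 with PA, and its part in the results was not tested. The libraries are bulk RNA, so a change in the number of cells and a change in RNA per cell cannot be told apart.

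PA-treated PTECs had higher transcript levels for most of the membrane sector. Of the 9 members high enough to test, 7 rose, 2 missed the threshold and 0 fell. Over all genes tested, 11.2% were called higher in PA, 9.52% lower and 20.7% in either direction. This background split depended on scaling and on single libraries: 54.0% of calls were higher in PA, against 64.8% with median-of-ratios scaling and 45.4% without BSA replicate 3. The 1111 lower calls became 629, 463, 391 and 441 without BSA replicate 1, BSA replicate 2, PA replicate 2 and PA replicate 3, and the 1302 higher calls became 819 without PA replicate 2. The study also set a minimum on the fold change. When a log2 change larger than 0.4 in size was required as well, 3 members were called higher (Atp6v0b, Atp6ap2 and Atp6v0a1), beside 4.22% of all genes, or 6.29% in either direction. In 8 of the 9 the PA libraries all lay above the BSA libraries, which was the case for 18.2% of genes tested (22.3% lay below), and Tcirg1 was the exception. Atp6v0a4, one of these 8, reached the expression minimum only through its PA libraries. The median log2 fold change of the 9, 0.37, was the value of Atp6v0a4 itself, which did not pass the test, and is given only as a description beside −0.04 over all genes tested. Except for Atp6v0a4, each tested member rested on at least 554 reads in every library. The increases ran from 1.12-fold for Atp6v0e to 1.98-fold for Atp6v0b. Atp6v0b and Atp6v0a1 were displayed by the study among TFEB targets from these same libraries, so their rise is not independent evidence.

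**Figure D1:**
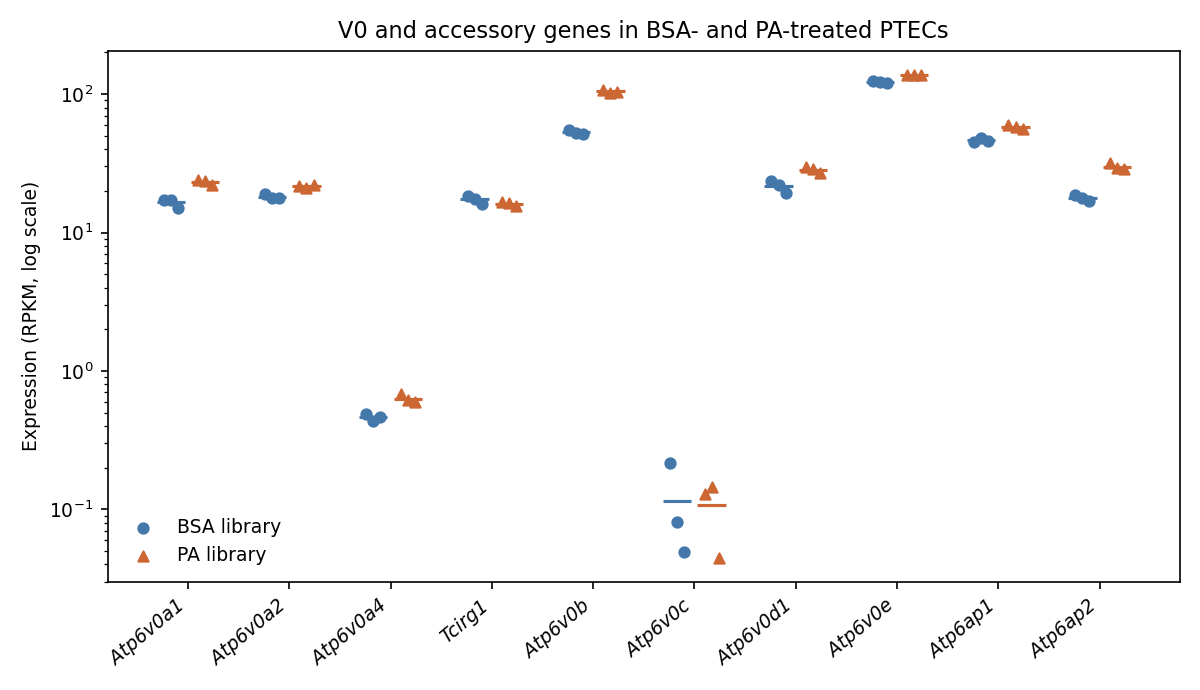
Expression of the 10 genes in RPKM on a log axis, with a circle for each BSA library, a triangle for each PA library and a bar at the mean of each group (n = 3 libraries). Atp6v0b stands at 51.3 to 54.8 RPKM with BSA and 102.1 to 107.6 with PA, whereas Atp6v0c stays below 0.22 in every library.

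The proteolipid ring held the member with the largest change. Atp6v0b, which encodes the c″ proteolipid of the ring, lies on chromosome 4 from 117884326 to 117887333 of GRCm38 (GENCODE vM21). Its RPKM values were 54.8, 52.3 and 51.3 in BSA replicates 1, 2 and 3 and 107.6, 102.1 and 104.2 in PA replicates 1, 2 and 3. The 2 groups were far apart, and the lowest PA library was well above the highest BSA library. The log2 fold change was 0.99 (SE 0.04, limma adjusted p = 7.1e-06), which placed it at rank 109 of the genes tested in order of increase. The value rested on 904 to 2163 reads per library. The transcript Gm12841 overlaps 243 exon bases of Atp6v0b on the other strand in GENCODE, and whether the authors counted by strand is unknown from the sources used here.

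Atp6v0c, which encodes the c subunit that forms most of the ring, was close to 0. It lies on chromosome 17 from 24163866 to 24169702. Its RPKM was 0.217, 0.0806 and 0.0491 with BSA and 0.129, 0.146 and 0.0447 with PA, so the groups overlapped. These values stand for 1 to 5 reads per library, 8 reads in all with BSA and 7 with PA. The ratio of PA to BSA was 0.902 (exact 95% interval 0.279 to 2.85, counting error only), and no test was made because the gene was below the expression minimum. Of the 50-base words in its transcript nearest in length to the one the authors used, 368 of 1134 (32.5%) also occur in transcripts of another gene, the pseudogenes Atp6v0c-ps1 and Atp6v0c-ps2. Among the other members that share was between 0 and 10.8%. Atp6v0c-ps2 was listed at 0 in all 6 libraries. The sources used here do not say how reads that match several places were counted, and the part of this in the low values was not tested. The level of Atp6v0c in these cells is therefore uncertain, and nothing about the c subunit is read from it.

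Among the a subunit genes, Atp6v0a1 and Atp6v0a2 rose and the others did not pass the test. Atp6v0a1 encodes the isoform best known from synaptic vesicles and lies on chromosome 11 from 101009452 to 101063719. It had RPKM values of 17.3, 17.2 and 15.1 with BSA and 23.9, 23.4 and 22.1 with PA. The groups did not overlap, at 1.40-fold (log2 fold change 0.48, SE 0.06, limma adjusted p = 0.00163). Atp6v0a2, whose product is found in the Golgi apparatus and endosomes, lies on chromosome 5 from 124628576 to 124724455. It stood at 19.1, 17.8 and 17.7 RPKM with BSA and 21.8, 20.9 and 21.9 with PA. This smaller change was outside the range of the BSA libraries, at 1.18-fold (limma adjusted p = 0.00855). Of its exon bases, 663 are shared with 4930404A12Rik, a transcript of the other strand.
Tcirg1, which encodes the a3 isoform that osteoclasts and lysosomes use, lies on chromosome 19 from 3896050 to 3907133. It had RPKM values of 18.3, 17.6 and 16.2 with BSA and 16.6, 16.2 and 15.5 with PA. The groups overlapped through BSA replicate 3, and the log2 fold change was −0.11 (SE 0.06, limma adjusted p = 0.212). Without BSA replicate 3 it was −0.16 and passed the test with an adjusted p of 0.0450 in limma. Among 10 osteoclast and macrophage markers, Csf1r and Cd68 had a mean RPKM over 1, Ocstamp was at 0 in all libraries, and the summed RPKM of the list was 5.55 to 7.18 with BSA and 5.64 to 6.39 with PA.
Atp6v0a4 encodes an isoform known from renal intercalated cells, though not taken here as a marker of them, and is found on chromosome 6 from 38048483 to 38124586. It was low, at 0.486, 0.438 and 0.465 RPKM with BSA and 0.679, 0.614 and 0.595 with PA, from 27 to 45 reads per library. It passed the expression minimum only through the PA libraries, which lay above the BSA libraries without overlap, and it did not pass the test (log2 fold change 0.37, SE 0.21, limma adjusted p = 0.237). It passed without the variance trend (limma adjusted p = 0.0136). The intercalated cell markers listed were at or near 0. Foxi1 and Atp6v1g3 had no read in any library, and the summed RPKM of the 8 markers was 0.0294 to 0.119 with BSA and 0.0906 to 0.145 with PA. Exons of D630045J12Rik on the same strand and of Tmem213 on the other strand overlap 321 of its bases. D630045J12Rik had a level of 2.66 to 3.27 RPKM over the 6 libraries, so the assignment of reads to Atp6v0a4 is uncertain.

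Since the isoforms are alternatives for the same place in the pump, the makeup of their transcripts was compared. The summed RPKM of the a subunit genes was 52.5 ± 2.89 with BSA and 61.4 ± 1.45 with PA (SD, n = 3 libraries each, exact permutation p = 0.1). With BSA the transcripts of Atp6v0a1, Atp6v0a2 and Tcirg1 were at similar levels in RPKM, 31.5 ± 1.01%, 34.7 ± 1.20% and 33.0 ± 0.27% of that sum. With PA the share of Atp6v0a1 was 37.7 ± 0.79% and that of Tcirg1 26.2 ± 0.40%. The PA libraries did not overlap the BSA libraries in either share. Atp6v0a2 took 35.1 ± 1.21% with PA, a mean within the range of the BSA libraries (exact permutation p = 0.6). Its PA replicate 3, at 36.5%, lay above the highest BSA library, at 35.9%. Atp6v0a4 took about 1% in both groups (0.882% and 1.02%). For the other 3 shares the two-sided exact permutation p was 0.1, the smallest that 3 against 3 libraries allow, and 0.133 when adjusted over the 4 genes, so the test cannot reach 0.05.
Pairs of related genes were compared as log2 ratios within each library, which do not depend on how the libraries were scaled. The ratio of Atp6v0a1 to Tcirg1 was −0.08, −0.03 and −0.10 with BSA and 0.53, 0.53 and 0.51 with PA, a difference of 0.59 on the log2 scale. That of Atp6v0a2 to Tcirg1 differed by 0.35 and that of Atp6v0a1 to Atp6v0a2 by 0.24. In each of these 3 pairs the groups did not overlap. Of the 7 pairs with a value, 6 had an exact permutation p of 0.1, the smallest possible (0.117 adjusted over the pairs), and Atp6v0a1 with Atp6v0a4 had p = 0.7. The pair of Atp6v0b and Atp6v0c was left out because Atp6v0c was near 0.

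**Figure D2:**
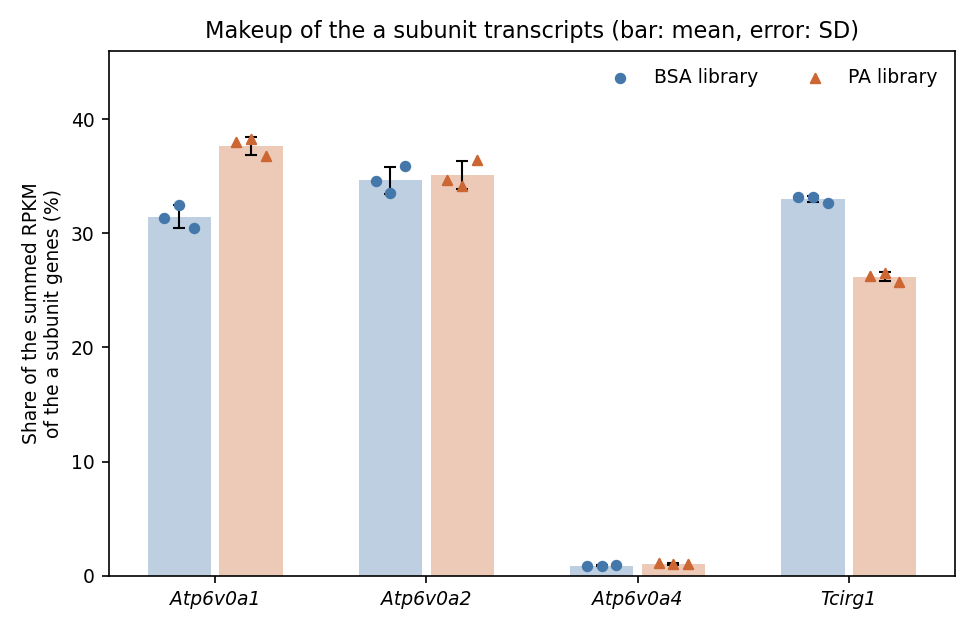
Share of each a subunit gene in the summed RPKM of the 4 genes, in percent, with bars at the mean of 3 libraries, error bars of 1 SD, and a circle or triangle for each BSA or PA library. The share of Atp6v0a1 was 31.5% with BSA and 37.7% with PA, and that of Tcirg1 33.0% and 26.2%.

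The subunits that complete the sector, Atp6v0d1 and Atp6v0e, rose 1.32-fold and 1.12-fold. Atp6v0d1 encodes the d1 subunit, which joins the ring to the central stalk of V1, and lies on chromosome 8 from 105524465 to 105566047. Its RPKM was 23.4, 22.2 and 19.4 with BSA and 30.0, 28.7 and 26.7 with PA. BSA replicate 3 was the lowest library, and the groups did not overlap. The log2 fold change was 0.395, just below the fold minimum of 0.4 (SE 0.07, limma adjusted p = 0.00935). With 1 library left out it lay between 0.32 and 0.45. Atp6v0e, which encodes the small e subunit, lies on chromosome 17 from 26663231 to 26699647 and had the highest RPKM of the members. It had 124.8, 121.7 and 119.4 RPKM with BSA and 136.7, 136.6 and 137.7 with PA. The PA libraries were close together and above every BSA library, and the log2 fold change of 0.17 (SE 0.03) passed the test with an adjusted p of 0.00632 in limma.
Related V0 genes outside the list behaved differently from each other. Atp6v0e2, the paralog of Atp6v0e, was at 27.2 to 31.6 RPKM with BSA and 28.5 to 30.4 with PA, with overlapping groups (log2 fold change 0.00, SE 0.06, limma adjusted p = 0.994). Atp6v0d2, the paralog of Atp6v0d1 known from osteoclasts and kidney, was at 0 in all libraries but PA replicate 1, where its RPKM was 0.0198. Rnasek, which encodes a small membrane protein of V0, rose from a range of 49.1 to 53.9 RPKM to a range of 71.8 to 76.4 (log2 fold change 0.54, SE 0.05, limma adjusted p = 1.9e-04).

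Both accessory protein genes rose, with the larger fold change for Atp6ap2. Atp6ap2 encodes the (pro)renin receptor, a membrane protein whose fragment is built into V0 during assembly. It is found on chromosome X from 12587801 to 12617049. Its RPKM was 18.6, 17.7 and 16.9 with BSA and 31.9, 29.1 and 28.9 with PA. The groups were well separated, at 1.69-fold (log2 fold change 0.75, SE 0.05, limma adjusted p = 8.8e-05). Atp6ap1, which encodes the accessory protein Ac45 that guides assembly of V0, lies on chromosome X from 74297097 to 74304721. It had 45.4, 47.8 and 46.1 RPKM with BSA and 59.5, 57.6 and 56.4 with PA, 1.25-fold higher on average (log2 fold change 0.32, SE 0.04, limma adjusted p = 9.1e-04). The log2 ratio of Atp6ap1 to Atp6ap2 was 1.39 ± 0.09 with BSA and 0.95 ± 0.04 with PA (SD, n = 3 libraries each, exact permutation p = 0.1), and the libraries of the groups did not overlap.

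The order of the RPKM levels was the same in both groups for the highest 3 genes and differed below them. This order depends on the gene lengths used, which were recovered from the values. For Atp6v0e that length was 796 bases, and its longest transcript in GENCODE has 2812. With BSA, reads summed to 5760 for Atp6v0e, 6029 for Atp6ap1 and 5767 for Atp6v0a2. In RPKM, Atp6v0e was the highest, followed by Atp6v0b and Atp6ap1, with no overlap between neighbours. With BSA, Atp6v0d1 came next, and the ranges of Atp6v0a2, Atp6ap2, Tcirg1 and Atp6v0a1 overlapped from neighbour to neighbour between 15.1 and 19.1 RPKM. With PA, Atp6ap2 came next by mean, followed by Atp6v0d1, Atp6v0a1, Atp6v0a2 and Tcirg1. Atp6ap2 overlapped only with Atp6v0d1, and Atp6v0a1 (22.1 to 23.9 RPKM), Atp6v0a2 (20.9 to 21.9) and Tcirg1 (15.5 to 16.6) did not overlap.

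Single libraries stood off from their group mean across most members. BSA replicate 3 was below its group mean in 8 of the 9 tested members, by 0.06 on average on the log2 scale, and PA replicate 1 was above its group mean in 8 of 9, by 0.05 on average. In BSA replicate 1 only 1 member was below its group mean (mean deviation 0.06), and in PA replicate 3 the number below was 7 (mean deviation −0.04). Over all genes, the deviations of BSA replicate 1 and BSA replicate 3 from their group mean followed GC content (Spearman correlation 0.36 and −0.38 across genes, which are not independent replicates), whereas in the PA libraries this correlation lay between −0.04 and 0.03. After this GC trend was taken out of every library, 7 members rose, and Atp6v0b and Atp6ap2 kept log2 fold changes of 1.00 and 0.78.

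**Figure D3:**
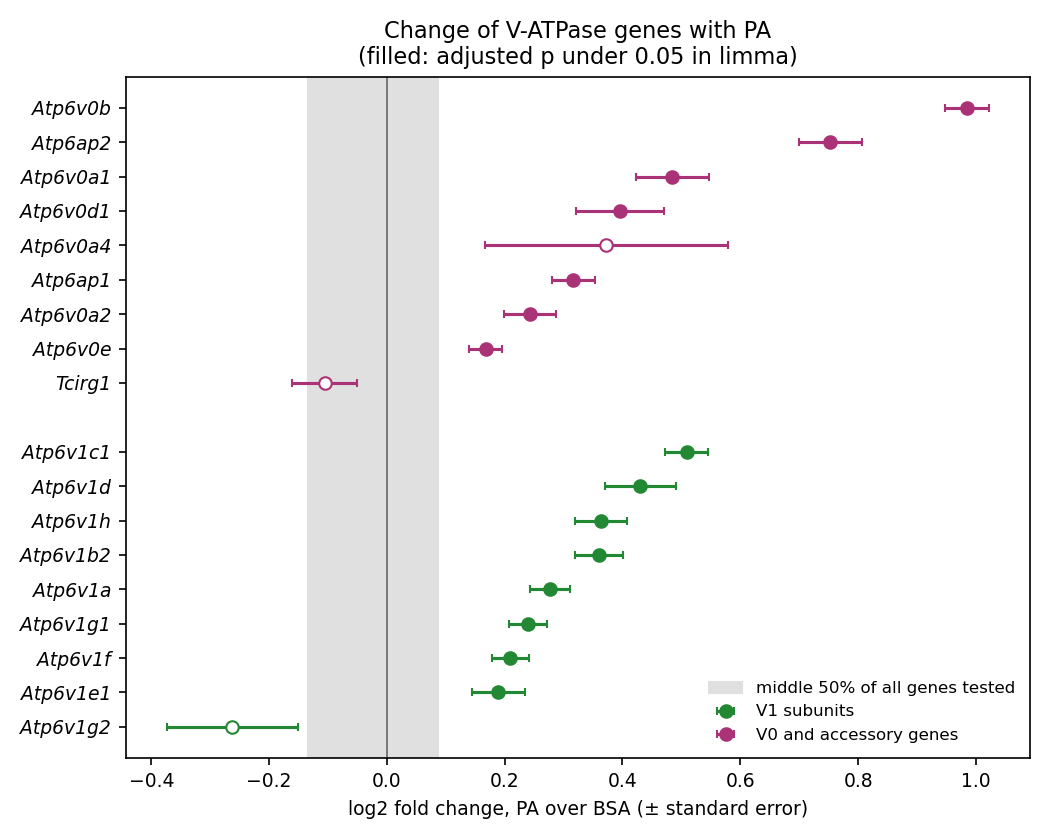
Log2 fold change of PA over BSA for the 9 tested V0 and accessory genes and the 9 tested V1 genes, with error bars of 1 standard error from limma. Filled points passed at an adjusted p under 0.05 and the grey band spans the middle 50% of all genes tested (−0.13 to 0.09). Atp6v0b and Atp6ap2 lie farthest to the right, at 0.99 and 0.75.

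The V1 sector, the catalytic part of the same pump, was measured for comparison. Of 13 V1 genes 9 were tested, of which 8 rose and 1, Atp6v1g2, did not pass, beside 11.2% of all genes tested called higher. The median log2 fold change was 0.28. Atp6v1c1, which encodes a stalk subunit that controls the binding of V1 to V0, rose most (log2 fold change 0.51, SE 0.04, limma adjusted p = 9.3e-05). Atp6v1d, a central stalk gene, Atp6v1h, whose product regulates the ATPase, and Atp6v1b2, the nucleotide-binding B2 subunit gene, rose 1.35-fold, 1.29-fold and 1.28-fold. With the fold minimum 2 V1 genes were called higher, Atp6v1c1 and Atp6v1d, beside 4.22% of all genes tested. The V0 and V1 medians are given as a description, and their difference was not tested.

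Genes that assemble, regulate or work beside the pump were taken from lists of their own. Their counts stand beside 11.2% of all genes tested called higher in PA. Of 3 assembly factor genes of the endoplasmic reticulum, Tmem199 rose 1.18-fold (limma adjusted p = 0.00232), and Vma21 and Ccdc115 did not pass. Of 8 tested genes of the RAVE complex and of TLDc proteins, which control the union and separation of V1 and V0, 1 rose, Wdr7 (log2 fold change 0.28, limma adjusted p = 0.0409), and 7 did not pass. That count is near the share over all genes. Of 8 tested genes for the Ragulator and Rag GTPases, the lysosomal platform for MTORC1 with which the V-ATPase interacts, and the amino acid sensor SLC38A9, 3 rose and 5 did not pass. They were Rragc, Lamtor1 and Lamtor3, at 1.68-fold, 1.34-fold and 1.12-fold.
Ion transport genes of endosomes and lysosomes were also examined. Of 10 tested, 6 rose, 4 missed the threshold and 0 fell, beside 11.2% of all genes tested called higher. Their median was 0.30 on the log2 scale. Clcn7, the chloride-proton exchanger gene of lysosomes, rose 1.57-fold, and Ostm1, its partner subunit, rose 1.46-fold. Clcn6 and the calcium channel gene Mcoln1 rose 1.53-fold and 1.51-fold. Of the MiT/TFE transcription factor genes, Tfeb and Tfe3 were tested and neither passed, with log2 fold changes of −0.17 (SE 0.20) and 0.02 (SE 0.05). These are mRNA levels, whereas the study followed TFEB activation by phosphorylation and nuclear location of the protein. Of 10 housekeeping genes, Actb and Sdha fell (log2 fold changes of −0.27 and −0.12) and 8 did not pass, beside 9.52% of all genes tested called lower.

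**Figure D4:**
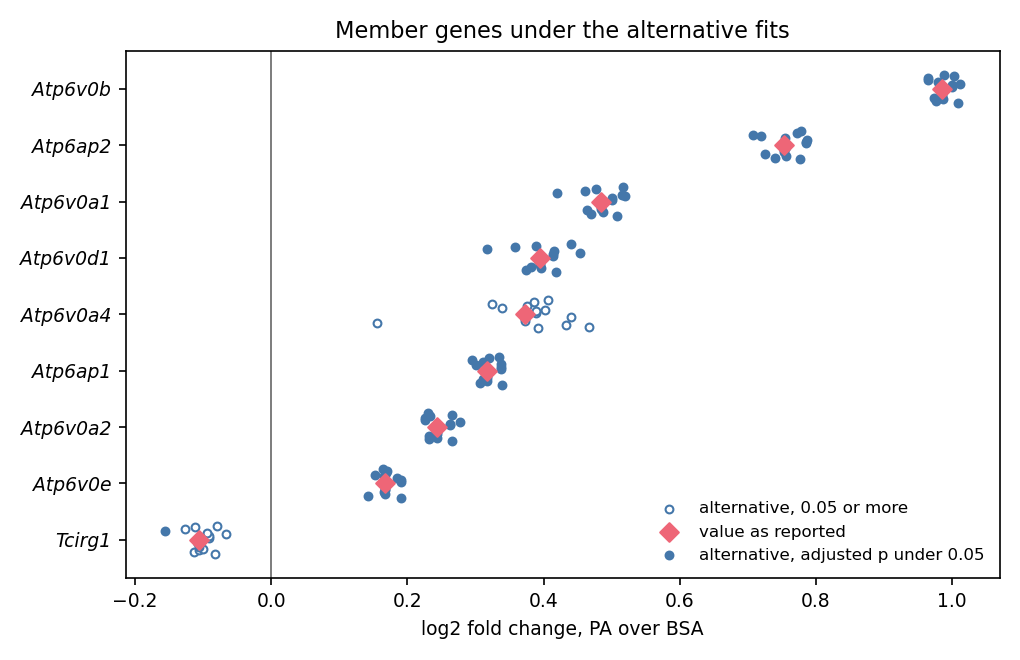
Log2 fold change of PA over BSA for each tested member as reported (diamond) and under each alternative fit (circles, filled where the adjusted p was under 0.05). Atp6v0b stays between 0.96 and 1.01, and Tcirg1 stays below 0 in every fit, from −0.16 to −0.067.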

How the data were processed

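The authors made base calls with bcl2fastq and mapped reads from stranded mRNA libraries to GRCm38 (mm10) with TopHat2 (version 2.1.1 in the submitters' processing notes). Counter, annotation and strand setting: not given in the sources used here. RPKM values per gene and library were deposited by the authors, together with a log2 fold change, p-values and a rank from the authors' edgeR test, which were not used. Table columns name a treatment initial and a number, and were matched to labels of the same treatment and number.

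RPKM is not a count, so limma 3.58.1 (R 4.3.3) was fitted to log2(RPKM + 0.1) by condition alone, with a variance trend, on the 11671 genes that averaged 0.5 RPKM or more, and p-values were adjusted over all of these. The fit was tested on simulated data. A gene length at which all values were whole reads was found for 100.0% of expressed genes (within 1e-05 reads). The smallest such length gave the read numbers, which are too low where length and reads share a factor. Recovered reads summed to 99.37% to 99.44% of the library sizes. No 2 libraries were duplicates: replicates differed beyond counting error, with a chi-square per degree of freedom of 1.86 to 8.16. The members and gene lists were chosen with earlier results of these data known. All members were named, with up to 4 genes of each other list that had the largest change past the test (2 by expression where none passed), and the 5 genes nearest in profile, of which 1 is not reported here. Marker and paralog genes beyond this rule were named after their values were seen. Alternatives covered scaling, pseudocount, filter, variance model, recovered reads, GC trend, replicate block and single libraries left out.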

Additional observations from a re-analysis of the deposited data

How the results depend on the processing

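The number of members called lay between 7 and 8 in all 17 alternatives, and that with the fold minimum of 0.4 between 3 and 4, where Atp6v0d1 crossed that minimum (this count was added after seeing the data). V1 genes called lay between 7 and 9. Without BSA replicate 3 the 9 V1 genes called were 8 higher and 1 lower in PA, and the 8 members called were 7 higher and 1 lower. The 7 members that rose did so in each alternative. Their adjusted p stayed at or below 0.0431, which was the highest value for Atp6v0d1. Over all genes, the count called lay between 1210 and 3007 with 1 library left out (without PA replicate 2 and without BSA replicate 3), beside 2413. Without BSA replicate 2 and without PA replicate 3 it was 1379 and 1325. The share of calls that were higher in PA was 54.0% as reported, 64.8% with median-of-ratios scaling, 61.1% with the GC trend removed, and between 45.4% (without BSA replicate 3) and 67.7% (without PA replicate 2) with 1 library left out. Tcirg1 lay between −0.16 and −0.067 on the log2 scale with 1 library left out, and Atp6v0a4 passed without the variance trend, at 0.37 (adjusted p = 0.0136). The share of Atp6v0a2 in the a subunit transcripts changed by −0.25 to 1.04 percentage points with 1 library left out and by −0.015 from recovered reads not set per length, against 0.43. The share of Tcirg1 changed by −5.55 from those reads, against −6.79. The cause of these differences was not tested. Over all genes tested, deviations of same-numbered libraries were nearly uncorrelated (correlations of 0.03, −0.04 and 0.09), and the numbers were not taken as pairs. Among the members, the mean deviations of replicates 1, 2 and 3 had the same order in both groups. They were 0.06, 0.01 and −0.06 with BSA and 0.05, −0.01 and −0.04 with PA. With a replicate block the SE of Atp6v0d1 was 0.041, against 0.075 without it. Whether the numbers mark pairs was not tested further. With the replicate block 7 members and 2575 genes were called. Atp6v0a4 could not be fitted at a mean RPKM of at least 1. Depth limits Atp6v0a4 and Atp6v0c, and 3 libraries per group limit the exact tests to p = 0.1.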

Other observations

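Genes whose profile over the 6 libraries was close to the mean profile of the 9 tested members included Slc4a2, which encodes a chloride-bicarbonate exchanger, Zfyve26, Srd5a3, which encodes a polyprenol reductase, and Por, the gene of cytochrome P450 reductase. Likeness was the Euclidean distance between log2 profiles centred on each gene's mean, and it lay between 0.0412 for Slc4a2 and 0.0538 for Por. The mean profile of the members was −0.14, −0.19 and −0.26 in BSA replicates 1, 2 and 3 and 0.25, 0.19 and 0.16 in PA replicates 1, 2 and 3, so closeness to it follows mainly from a similar difference between the groups. Slc4a2 had RPKM values of 34.0, 32.8 and 30.3 with BSA and 44.1, 41.7 and 41.3 with PA, and Por 67.2, 66.1 and 60.4 with BSA and 88.3, 84.6 and 85.1 with PA. In each of these 4 genes the PA libraries all lay above the BSA libraries, as in 18.2% of genes tested. This follows from how the 4 were chosen and is no separate result.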
